A study of Homo sapiens with 36 samples.

Results

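JEKO and UPN-1 are established human cell lines derived from mantle cell lymphoma, and the comparison described here is between them in the absence of drug. The members are the 6 libraries labelled DMSO at 24 h, 3 of UPN-1 and 3 of JEKO, out of 36 libraries in the series. The series also holds the MINO line, a second time point of 72 h and a KDM5 inhibitor, GS716054, in each of the 3 lines, with 3 replicates in each of 12 groups. All 6 libraries came from cells given the DMSO vehicle and collected 24 h later, grown in RPMI-1640 with fetal bovine serum, L-glutamine and an antibiotic, and were made from RNA prepared with a Qiagen mRNA kit. The labels call the replicates biological and do not say that they were separate cultures, so the p-values measure the spread between these libraries. Each line is a single tumour-derived population, and 3 libraries of a line are not 3 tumours. Genes on chromosomes X and Y were left out.

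Mantle cell lymphoma is a malignancy of mature B cells, most often of cells that resemble the naive B cells of the mantle zone. Its usual founding event places CCND1, the gene of cyclin D1, beside the immunoglobulin heavy chain enhancer, and cyclin D1 with its kinases phosphorylates the retinoblastoma protein RB1 and so releases E2F factors at entry into S phase. Survival of these cells commonly draws on the B-cell receptor, on NF-kappaB and on proteins of the BCL2 family. The transcription factor SOX11 and the surface protein CD5 are commonly used to recognise the disease. B cells that enter a germinal centre express BCL6, and plasma cells express PRDM1, IRF4 and XBP1.

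The 6 libraries held between 9720919 and 14125495 reads assigned to genes. Levels are given as CPM, read counts relative to the scaled library size. Log2 CPM of replicates of a line correlated at 0.986 to 0.990, and those of libraries from different lines at 0.844 to 0.851, which is a description over genes. A gene was called when its adjusted p (edgeR quasi-likelihood test, Benjamini-Hochberg adjustment over 14238 tested genes) was under 0.05, and every fold change is given on the log2 scale as UPN-1 minus JEKO. Of the genes tested 65.3% were called: 4549 (31.9%) were higher and 4744 (33.3%) lower in UPN-1. In a stricter test against a 2-fold difference (edgeR glmTreat), 872 (6.12%) were higher and 1630 (11.4%) lower. The 3 libraries of each line did not overlap in 68.9% of the genes. A share of called members near these values is therefore not particular to a gene list. The rule that named list genes by their largest differences admitted only genes without overlap. For such genes a lack of overlap is not added evidence. With the spread taken from all 12 vehicle libraries of both lines, 7585 genes were called, and a list's count from that fit is given below wherever it moved by more than 1.5 times. Mitochondrially encoded transcripts took 3.26 to 4.22% of gene reads in JEKO and 1.52 to 1.87% in UPN-1. Most markers of other cell types were near 0, but not all. CD2, KLRD1, MPO, HBB, CDH1 and COL3A1 were at 0 in both lines, and CD3D was at 0.292 CPM in JEKO and 0 in UPN-1. Of the 10 T-cell markers, 4 reached a mean of 1 CPM in JEKO and 2 in UPN-1. Their summed level was 107 to 126 CPM in JEKO and 69.6 to 76.0 CPM in UPN-1. It was carried by CD247 (62.1 ± 8.36 CPM in JEKO and 11.97 ± 1.80 CPM in UPN-1) and TRAC (48.3 ± 1.88 CPM in JEKO and 57.3 ± 3.00 CPM in UPN-1). In the test against a 2-fold difference, 2 T-cell markers and 1 epithelial marker were lower in UPN-1, and 1 fibroblast marker was higher. The summed NK-cell markers reached at most 7.66 CPM, the myeloid markers 3.12 CPM, the epithelial markers 5.14 CPM and the fibroblast markers 4.62 CPM in any library, and the erythroid sum of 31.5 to 50.5 CPM was carried by ALAS1, a heme enzyme that all cells use.

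To place the lines as B cells, the markers of the lineage and of the disease were examined first. Both lines carried the defining ones. The CCND1 transcript stood at 2681, 2797 and 2691 CPM in the JEKO libraries and at 2494, 2559.9 and 2565 CPM in the UPN-1 libraries. All 3 UPN-1 values lay below the JEKO values, but the difference was small and not called (log2 fold change -0.10, SE 0.08, adjusted p = 0.263). SOX11 read 85.4, 95.7 and 72.5 CPM in JEKO and 64.9, 82.3 and 92.8 CPM in UPN-1, with overlapping libraries (log2 fold change -0.08, SE 0.12, adjusted p = 0.594). CD5 did differ, at 13.1, 15.6 and 14.4 CPM in JEKO and 2.88, 1.87 and 2.02 CPM in UPN-1, where every library was lower (log2 fold change -2.67, SE 0.21, adjusted p = 1.03e-08). In bulk libraries fewer cells with a transcript and less of it per cell cannot be told apart. The third line, MINO, stood at 69.8 ± 4.75 CPM (SD, n = 3). Of the 11 genes listed for mantle cell lymphoma, 10 were tested, 4 were higher and 4 lower in UPN-1. FARP1, a guanine nucleotide exchange factor, was the member with the largest increase, from 73.9, 83.0 and 72.4 to 413, 449.6 and 469 CPM (log2 fold change +2.54, SE 0.08, adjusted p = 5.14e-13), and it lies in the chromosome 13 segment described below. ROR1, a receptor tyrosine kinase of WNT5A, was also higher (+0.76 ± 0.09 SE). The 10 Mb window of chromosome 1 that holds ROR1 (60 to 70 Mb) had the same median, with 18 of 25 genes higher. HDGFL3 was higher by less (+0.44 ± 0.09 SE). CNR1, the cannabinoid receptor, was lower, at 73.8, 66.4 and 45.2 CPM in JEKO against 5.17, 6.49 and 3.14 CPM in UPN-1 (log2 fold change -3.69, SE 0.21, adjusted p = 2.49e-10), and so was PON2, a lactonase (-3.24 ± 0.42 SE).

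B-lineage identity genes were expressed in both lines, and more of them were higher in UPN-1. Of the 18 listed, all were tested, 12 were higher, 3 lower and 3 not called, with a median log2 fold change of +0.28 against -0.01 over all genes; with the 12-library spread 6 remained called higher. PAX5, the factor that holds B-cell commitment, read 225, 208 and 254 CPM in JEKO and 292, 289 and 366 CPM in UPN-1 (log2 fold change +0.47, SE 0.10, adjusted p = 5.18e-04; adjusted p = 0.0941 with the 12-library spread). EBF1, which acts with PAX5 in early B-cell specification, read 31.7, 33.8 and 27.8 CPM and 70.2, 66.4 and 81.4 CPM (log2 fold change +1.23, SE 0.10, adjusted p = 2.40e-08). In both genes the lowest UPN-1 library exceeded the highest JEKO library, which the naming rule required of EBF1. CD24 (+1.08 ± 0.10 SE) and IKZF3, the gene of Aiolos (+0.75 ± 0.08 SE), were higher as well. The 3 lower members were BANK1, a B-cell adaptor, and POU2F2 and POU2AF1, the octamer factor OCT2 and its coactivator. BANK1 differed most, from 68.4, 55.0 and 56.5 CPM in JEKO to 3.68, 4.07 and 4.49 CPM in UPN-1 (log2 fold change -3.86, SE 0.14, adjusted p = 1.14e-12).

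**Figure D1:**
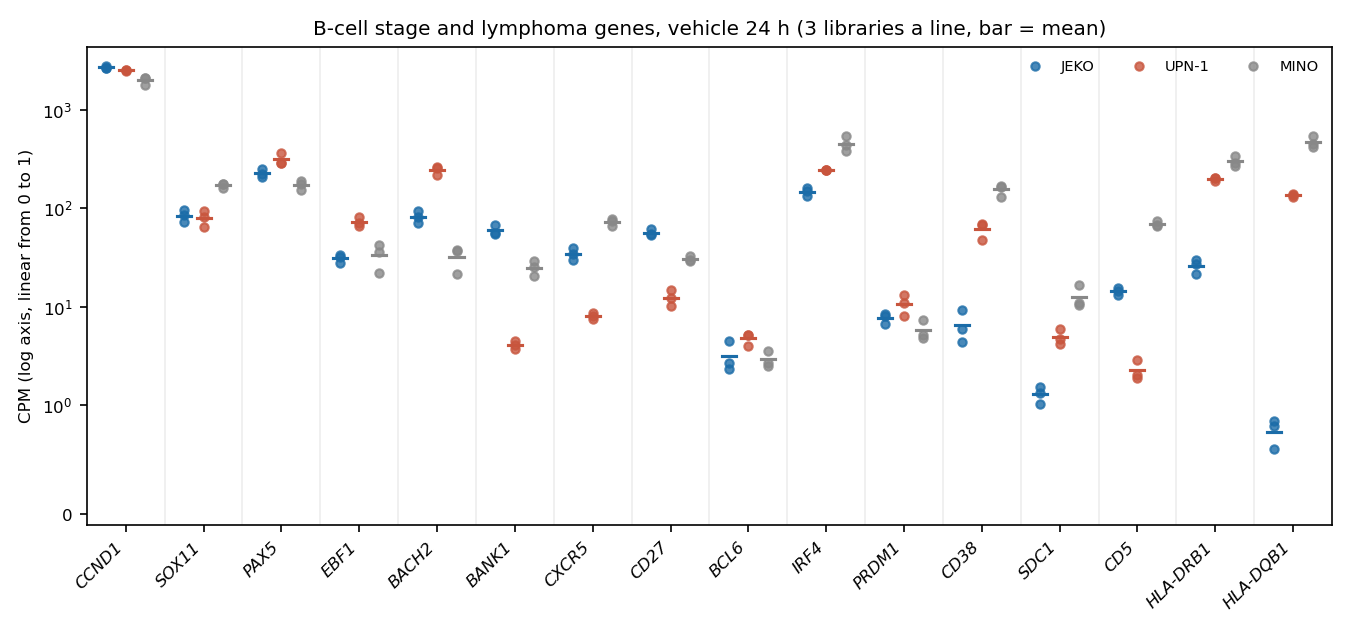
CPM (vertical axis, logarithmic above 1 and linear below) of 16 stage and lymphoma genes in each of 3 libraries of JEKO, UPN-1 and MINO with vehicle at 24 h; bars are means. CCND1 and SOX11 sat at similar heights in JEKO and UPN-1, and HLA-DQB1 was under 1 CPM in JEKO.

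The germinal centre list gave no common direction: 15 of 18 listed genes were tested, 4 were higher and 5 lower in UPN-1, with a median of +0.08. BCL6 itself was low in both, at 4.44, 2.33 and 2.66 CPM in JEKO and 5.17, 3.96 and 5.09 CPM in UPN-1, and was not called (log2 fold change +0.61, SE 0.28, adjusted p = 0.0639), although it was without JEKO replicate 1 (adjusted p = 0.011) and without a filter on low counts (0.0431). S1PR2, a receptor that confines cells to the germinal centre, was lower (-1.26 ± 0.27 SE), as was SUGCT, a coenzyme A transferase (-3.78 ± 0.36 SE). GCSAM, a germinal centre signalling adaptor, was higher at 113, 122 and 122 CPM against 45.9, 56.9 and 48.2 CPM (log2 fold change +1.24, SE 0.09, adjusted p = 4.41e-09). BACH2, a repressor of plasma cell differentiation, was higher too, at 218, 264 and 259 CPM in UPN-1 and 70.6, 92.9 and 81.4 CPM in JEKO (log2 fold change +1.60, SE 0.10, adjusted p = 7.61e-10).

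Genes of naive, mantle zone and memory cells were mostly lower in UPN-1. Among them 12 of 16 listed genes were tested, 2 were higher and 7 lower in UPN-1, with a median of -0.74 (1 higher with the 12-library spread). CXCR5, the chemokine receptor that brings B cells into follicles, read 34.7, 29.6 and 39.2 CPM in JEKO and 7.46, 8.58 and 8.09 CPM in UPN-1 (log2 fold change -2.10, SE 0.14, adjusted p = 1.86e-09). CD27, a receptor of memory B cells, read 53.0, 61.2 and 55.1 CPM and 12.2, 14.7 and 10.1 CPM (log2 fold change -2.21, SE 0.13, adjusted p = 2.68e-10). In neither gene did the lines overlap, as the naming rule required. FCRL3, an Fc receptor-like protein of memory B cells, was nearly absent from UPN-1, at 0.398, 0 and 0.15 CPM against 2.84, 2.17 and 5.74 CPM in JEKO (log2 fold change -4.20, SE 0.61, adjusted p = 1.33e-05). Genes on the opposite strand cover 91.1% of the CXCR5 exons and 42.5% of those of CD27, and whether the counts used strand is not given in the sources used here. TCL1A, a coactivator of AKT kept by naive cells, was higher, at 1025, 994 and 964 CPM in UPN-1 against 812, 917 and 788 CPM in JEKO (log2 fold change +0.25, SE 0.08, adjusted p = 0.013; adjusted p = 0.283 with the 12-library spread).

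Plasma cell genes also moved in both directions: all 17 were tested, 8 were higher and 7 lower, with a median of 0.00 (with the 12-library spread, 5 and 4). IRF4 was higher, at 246, 248 and 246 CPM in UPN-1 and 133, 149 and 159.6 CPM in JEKO (log2 fold change +0.75, SE 0.08, adjusted p = 3.65e-07). PRDM1 was low in both lines, at 8.51, 6.599 and 7.97 CPM in JEKO and 10.9, 8.03 and 13.03 CPM in UPN-1, and the libraries overlapped (log2 fold change +0.49, SE 0.20, adjusted p = 0.0375). That call was lost when JEKO replicate 2 (adjusted p = 0.139), UPN-1 replicate 1 (0.0773) or UPN-1 replicate 3 (0.207) was left out, and with DESeq2 (0.088). CD38, an ectoenzyme of plasma cells and activated B cells, showed the largest increase of the list, from 4.35, 9.25 and 5.91 CPM in JEKO to 67.4, 68.9 and 47.2 CPM in UPN-1 (log2 fold change +3.21, SE 0.20, adjusted p = 6.00e-10). SDC1, the plasma cell surface proteoglycan, was higher at a low level (4.94 against 1.29 CPM, +1.91 ± 0.30 SE on the log2 scale). ELL2, an elongation factor for secreted immunoglobulin transcripts, was lower, at 0.199, 0.11 and 0.299 CPM in UPN-1 against 6.52, 4.10 and 8.14 CPM in JEKO (log2 fold change -4.79, SE 0.45, adjusted p = 7.92e-08). FKBP11, a chaperone of the secretory pathway, and TENT5C, a polymerase that stabilises secretory transcripts, were lower as well (-1.78 ± 0.13 and -2.08 ± 0.26 SE), while CREB3L2, a factor of the secretory apparatus, was higher (+1.43 ± 0.12 SE).

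Immunoglobulin transcripts were lower in UPN-1 for most constant regions. Of 15 listed genes 14 were tested, 1 was higher and 10 were lower, with a median of -0.86 (2 higher without JEKO replicate 1 or without UPN-1 replicate 3). The higher gene was IGLL5, at 97.8, 92.1 and 88.1 CPM in UPN-1 against 27.9, 32.3 and 35.1 CPM in JEKO (log2 fold change +1.54, SE 0.10, adjusted p = 5.81e-10). The mu heavy chain, IGHM, stood at 5323 ± 335 CPM in JEKO and 3857 ± 176 CPM in UPN-1 (SD, n = 3; log2 fold change -0.46). The kappa light chain IGKC stood at 2043 ± 56.7 CPM in JEKO and 1259.6 ± 131 CPM in UPN-1 (-0.70). Both lines thus carried mu and kappa transcripts, while MINO held 0.0609 ± 0.106 CPM of IGKC. The downstream class IGHE read 43.96, 58.1 and 55.8 CPM in JEKO and had 2 reads over the 3 UPN-1 libraries, a ratio of 862-fold (95% exact counting interval 238 to 7122). IGHA1 read 31.7, 39.4 and 43.6 CPM in JEKO and 0.597, 0.77 and 1.80 CPM in UPN-1 (log2 fold change -5.07, SE 0.25, adjusted p = 2.95e-11). IGHG4 stood at 13.9 and 0.449 CPM in the same order (-4.97 ± 0.33 SE on the log2 scale). The variable genes, picked after their values were seen, separated the lines: IGHV2-70 read 465, 486 and 532 CPM and IGKV3-20 1543, 1560.5 and 1565 CPM in JEKO, and IGKV1D-12 read 597, 583 and 515 CPM in UPN-1. The heavy chain variable gene with the highest level in UPN-1 was IGHV5-78, at 14.6 CPM, and it did not set UPN-1 apart (17.2 CPM in JEKO and 12.2 CPM in MINO). Immunoglobulin genes have near-identical copies and these cells can carry rearranged or mutated forms, so their counts are uncertain.

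Antigen presentation by class II molecules divided the lines within 1 gene family. The 15 listed genes were all tested, and 9 were higher and 2 lower in UPN-1, with a median of +0.31 (1 lower with the 12-library spread). HLA-DQB1 read 0.851, 0.805 and 0.6 CPM in JEKO and 140.3, 129 and 138 CPM in UPN-1 (log2 fold change +7.48, SE 0.14, adjusted p = 4.24e-16). Its partner HLA-DQA1 read 0.945, 0.563 and 1.11 CPM in JEKO and 39.2, 35.6 and 30.8 CPM in UPN-1 (log2 fold change +5.32, SE 0.21, adjusted p = 2.95e-12). HLA-DRB1 was higher too, from 21.5, 29.7 and 27.1 to 203, 189 and 204 CPM (log2 fold change +2.92, SE 0.10, adjusted p = 8.01e-13). These 3 genes were higher in every UPN-1 library than in any JEKO library, as the naming rule required. HLA-DRA, the invariant partner of DRB1, did not follow, at 1164 ± 142 CPM in JEKO and 1236 ± 99.9 CPM in UPN-1 (log2 fold change +0.09, SE 0.09, adjusted p = 0.439). CIITA, the master coactivator of class II transcription, was slightly lower in UPN-1 (-0.33 ± 0.07 SE; adjusted p = 0.0578 with the 12-library spread). HLA genes are highly polymorphic and share sequence with each other, so counts against 1 reference allele are uncertain, and the part this has in the differences was not tested. In class I, 5 genes were higher and 8 lower of 15 tested: HLA-C was higher (+1.72 ± 0.09 SE), and NLRC5, the class I coactivator, was lower at 29.8, 31.3 and 26.0 CPM against 75.1, 70.7 and 59.7 CPM (log2 fold change -1.24, SE 0.11, adjusted p = 3.14e-08). ERAP1, which trims peptides, and TAP2, a chain of the peptide transporter, were higher (+1.24 ± 0.08 and +1.05 ± 0.14 SE), and HLA-F was lower (-2.68 ± 0.32 SE).

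To compare signalling, components of the B-cell receptor pathway were followed from the receptor inward. All 26 were tested, 10 were higher and 14 lower in UPN-1, with a median of -0.37. The receptor chain CD79B was higher (+0.55 ± 0.09 SE), as were PIK3AP1, an adaptor that leads to PI3K (+0.88 ± 0.09 SE), and FYN, a SRC family kinase (+0.78 ± 0.15 SE). The exchange factor VAV2 showed the largest decrease, from 60.8, 71.9 and 76.0 CPM in JEKO to 10.4, 10.6 and 11.8 CPM in UPN-1 (log2 fold change -2.66, SE 0.12, adjusted p = 8.42e-12). RASGRP3, an activator of RAS, read 8.70, 9.01 and 10.8 CPM in JEKO and 1.99, 1.87 and 1.27 CPM in UPN-1 (log2 fold change -2.50, SE 0.24, adjusted p = 1.51e-07). No UPN-1 library reached a JEKO library for either gene, as the naming rule required. Of the complex that carries the signal to NF-kappaB, BCL10 was higher (+0.87 ± 0.12 SE) while MALT1 (-1.11 ± 0.14 SE) and the kinase PRKCB (-1.61 ± 0.14 SE) were lower.

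NF-kappaB pathway genes moved both ways, and their common targets were mostly lower. In the pathway list 18 of 19 genes were tested, 7 were higher and 9 lower; the count of higher genes was 4 without JEKO replicate 2 and 2 with the 12-library spread. The higher members included NFKB1 (+0.54 ± 0.10 SE) and the kinases IKBKB (+0.87 ± 0.10 SE) and CHUK (+0.39 ± 0.10 SE; adjusted p = 0.153 with the 12-library spread). The lower members included NFKB2, the precursor of the noncanonical subunit, at 103, 82.8 and 99.96 CPM in JEKO and 40.9, 37.6 and 29.8 CPM in UPN-1 (log2 fold change -1.40, SE 0.11, adjusted p = 1.65e-08). BIRC3, a ubiquitin ligase that restrains the noncanonical pathway and is itself induced by NF-kappaB, fell from 70.3, 57.3 and 57.8 CPM in JEKO to 4.08, 5.39 and 3.44 CPM in UPN-1 (log2 fold change -3.87, SE 0.15, adjusted p = 2.68e-12). TNFAIP3, the deubiquitinase A20, was lower as well (-1.75 ± 0.21 SE). Among the targets 11 of 18 were tested, 2 were higher and 7 lower, with a median of -0.69 (1 higher with the 12-library spread). TRAF1 read 15.03, 10.1 and 8.91 CPM in JEKO and 1.49, 0.44 and 0.824 CPM in UPN-1 (log2 fold change -3.60, SE 0.33, adjusted p = 6.27e-08). The adhesion molecule ICAM1 read 20.2, 14.9 and 20.7 CPM and 3.28, 2.53 and 2.92 CPM (log2 fold change -2.67, SE 0.20, adjusted p = 5.27e-09). CCL4, a chemokine, was higher at a low level (3.85 against 1.07 CPM, +1.85 ± 0.32 SE), and NFKBIZ, a nuclear cofactor, was lower (-2.15 ± 0.30 SE). MINO held 59.8 ± 24.9 CPM of ICAM1 and 9.02 ± 6.04 CPM of TRAF1 (SD, n = 3).

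Most receptors for homing signals and cytokines were lower in UPN-1. Of 22 listed, 20 were tested, 4 were higher and 12 lower in UPN-1, with a median of -1.27; 2 remained higher without UPN-1 replicate 1 and 2 with the 12-library spread. In the test against a 2-fold difference, 1 was higher and 10 were lower. IL10RA, a chain of the receptor for interleukin 10, read 69.9, 50.4 and 45.1 CPM in JEKO and 2.39, 2.97 and 2.10 CPM in UPN-1 (log2 fold change -4.49, SE 0.20, adjusted p = 9.34e-12). IL2RA, the alpha chain of the interleukin 2 receptor, read 10.8, 7.65 and 5.31 CPM in JEKO and had 2 reads over the UPN-1 libraries, a ratio of 127-fold (95% exact counting interval 34.8 to 1054). IL6R, of the interleukin 6 receptor, was similar, with 3 UPN-1 reads and 5.199, 3.62 and 3.34 CPM in JEKO, a ratio of 43.4-fold (95% exact counting interval 14.6 to 213). The largest difference in the other direction was in IL7R, the receptor of the lymphoid growth factor interleukin 7, from 5.39, 4.35 and 2.83 CPM in JEKO to 43.9, 44.5 and 55.3 CPM in UPN-1 (log2 fold change +3.53, SE 0.18, adjusted p = 4.58e-11), with 0.0598 ± 0.104 CPM in MINO. S1PR1, which guides cells out of lymphoid tissue, was also higher (+0.56 ± 0.11 SE). The integrin chains ITGB1 (-1.71 ± 0.08 SE), ITGB7 (-2.40 ± 0.19 SE) and ITGA4 (-0.96 ± 0.09 SE), which bind matrix and mucosal ligands, were lower, and so was the hyaluronan receptor CD44 (-1.82 ± 0.14 SE). These were picked after their values were seen. Another integrin chain, ITGB2, was called higher in UPN-1, but not with the 12-library spread (+0.70, edgeR adjusted p = 0.194).

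The NOTCH and WNT list was weighted towards UPN-1: 20 of 22 genes were tested, 13 were higher and 6 lower, with a median of +0.67. The receptors NOTCH1 (25.3 ± 4.05 CPM in JEKO and 74.5 ± 9.23 CPM in UPN-1, +1.56 ± 0.12 SE on the log2 scale) and NOTCH2 (+1.33 ± 0.09 SE) were higher, and HES1, a target of NOTCH, read 2.59, 3.85 and 5.99 CPM in UPN-1 against 0.0945, 0.161 and 0.514 CPM in JEKO (log2 fold change +3.96, SE 0.51, adjusted p = 3.54e-06). On the WNT side the members split. The ligand WNT5A, which signals without beta-catenin, read 66.0, 50.3 and 56.0 CPM in JEKO and 1.09, 1.76 and 1.20 CPM in UPN-1 (log2 fold change -5.42, SE 0.18, adjusted p = 5.44e-13). LEF1, a nuclear partner of beta-catenin, fell from 58.5, 68.3 and 70.6 to 14.1, 10.999 and 10.9 CPM (log2 fold change -2.46, SE 0.12, adjusted p = 3.87e-11), while its relative TCF7L2 was higher at a low level (4.47, 3.52 and 5.47 against 0.756, 0.483 and 0.343 CPM; log2 fold change +3.09, SE 0.37, adjusted p = 1.62e-06). The receptor FZD6 had 3 reads over the JEKO libraries and 173 over the UPN-1 libraries, a ratio of 61.5-fold (95% exact counting interval 20.7 to 301). DTX3, a ubiquitin ligase of the DELTEX family, was lower (-3.18 ± 0.29 SE).

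PI3K, AKT and MAPK genes did not lean to either line: 23 of 25 were tested, 8 were higher and 7 lower, with a median of -0.06 (4 lower with the 12-library spread). The catalytic subunit PIK3CG (+1.23 ± 0.13 SE) and the feedback inhibitor SPRY2 (+1.56 ± 0.25 SE) were higher. The MAPK phosphatases DUSP2 (-1.38 ± 0.11 SE) and DUSP5 (-1.83 ± 0.17 SE) were lower, and so was the kinase MAPK3 (-0.96 ± 0.11 SE). In the interferon list 25 of 31 were tested, 5 were higher and 10 lower (3 higher with the 12-library spread). OAS3, a sensor of double-stranded RNA, read 9.45, 15.05 and 19.4 CPM in JEKO and 0.597, 1.10 and 1.05 CPM in UPN-1 (log2 fold change -3.98, SE 0.32, adjusted p = 1.26e-08), and OAS1 (-1.46 ± 0.21 SE) and EPSTI1 (-2.03 ± 0.18 SE) were lower too. SAMD9, an antiviral factor (+2.13 ± 0.16 SE), and IFIT5, which binds RNA ends (+2.23 ± 0.20 SE), were higher. The plot of called members by list sets these counts side by side.

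**Figure D2:**
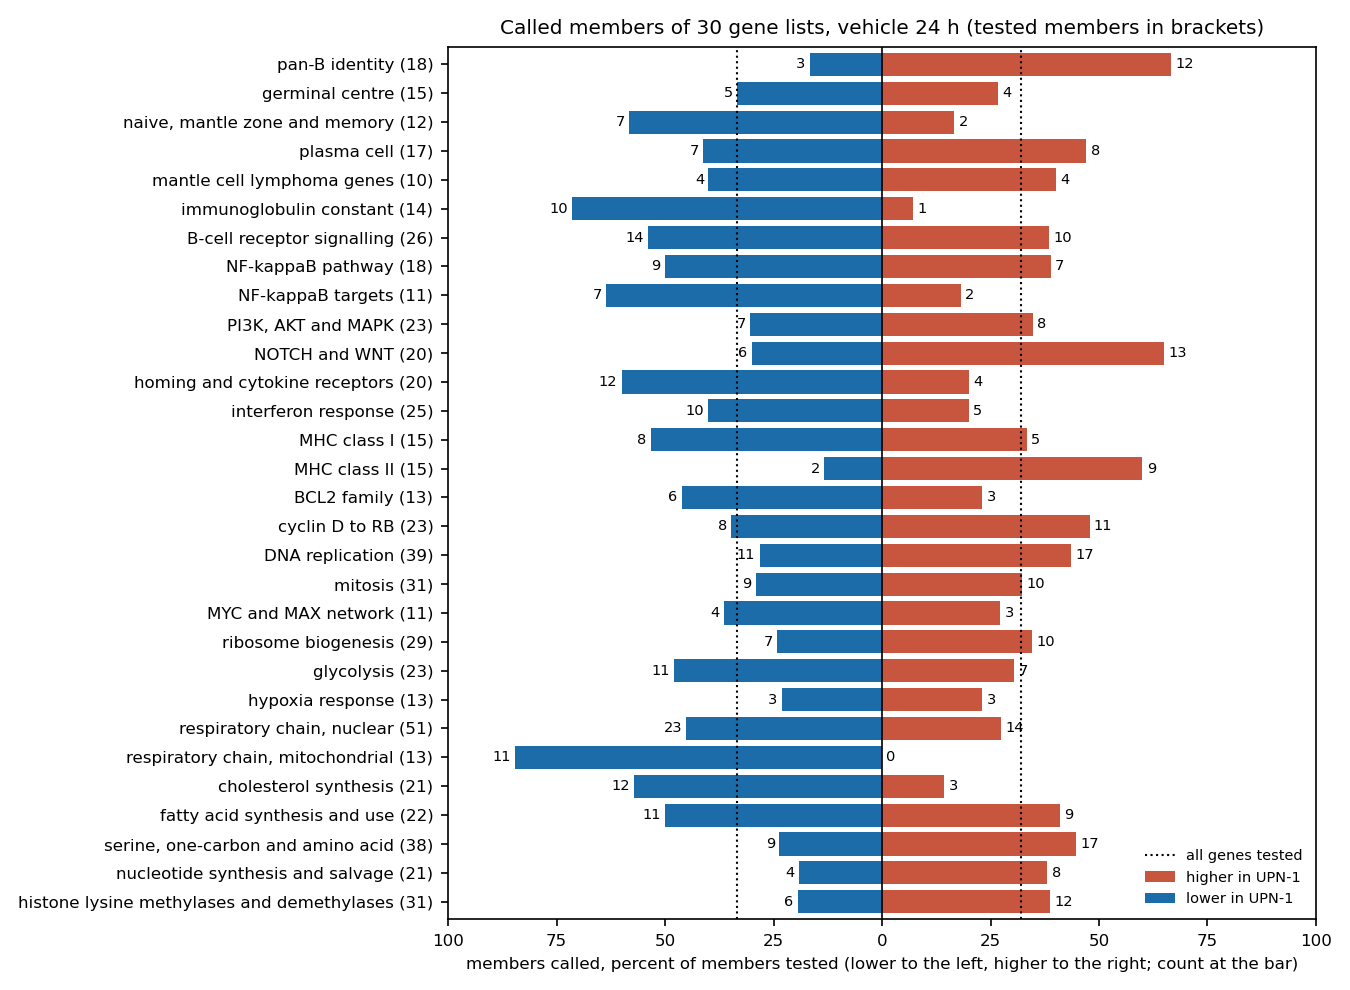
Share of the tested members of 30 gene lists that were called higher (right) or lower (left) in UPN-1 at 24 h, in percent, with counts at the bars; dotted lines mark the 31.9% and 33.3% of all tested genes. The mitochondrial transcripts (11 lower) and the immunoglobulin constant genes (10 lower) lie farthest to the left, and the B-lineage genes (12 higher) and the NOTCH and WNT genes (13 higher) farthest to the right.

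RB1, a target of cyclin D1 and its kinases, and CDKN2C, an inhibitor of those kinases, were at or near 0 in UPN-1. Of 25 genes from cyclin D to RB, 23 were tested, 11 were higher and 8 lower, with a median of +0.16. RB1, the pocket protein that cyclin D1 complexes inactivate (chromosome 13, 48303744 to 48599436, GRCh38), read 257, 229.8 and 249 CPM in JEKO and 0.298, 0.22 and 0.299 CPM in UPN-1, which is 8477 reads against 9 (log2 fold change -9.73, SE 0.16, adjusted p = 6.37e-17). MINO held 253 ± 41.3 CPM (SD, n = 3). The 7 nearest tested genes were all higher in UPN-1. Among them ITM2B, 33.4 kb away, differed by +1.28 ± 0.07 SE, FNDC3A on the other side by +0.73 ± 0.09 SE and RCBTB2, whose gene model lies inside that of RB1 on the other strand, by +1.89 ± 0.13 SE.

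CDKN2C, the CDK4 and CDK6 inhibitor p18 (chromosome 1, 50960745 to 50974634), read 136, 125 and 125 CPM in JEKO and had no read in UPN-1, at least 1389-fold lower (floor of 3 counts over the 3 libraries). FAF1, which begins 0.478 kb away (chromosome 1, 50437028 to 50960267) and encodes a FAS-associated adaptor, also had no read in UPN-1 and 65.8, 68.3 and 82.9 CPM in JEKO, at least 785-fold lower. The next tested genes were not called. BEND5, 1660 kb from FAF1 on one side, read 3.18 ± 0.46 CPM in JEKO and 2.09 ± 0.456 CPM in UPN-1, without overlap (log2 fold change -0.63, SE 0.30, adjusted p = 0.0739). Beyond BEND5, FOXD2 was called lower (-1.47 ± 0.35 SE). RNF11, 262 kb from CDKN2C on the other side, read 5.44 ± 0.389 CPM in JEKO and 6.44 ± 1.75 CPM in UPN-1 (log2 fold change +0.24, SE 0.22, adjusted p = 0.362). So 2 adjoining genes had no read, and MINO held 98.9 ± 28.2 CPM of CDKN2C and 92.6 ± 6.89 CPM of FAF1. Neighbours were looked up after the values were seen, and DNA was not measured in these libraries.

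The other inhibitors went in different directions. CDKN1A, p21, was lower, at 12.2, 10.2 and 8.46 CPM in UPN-1 against 34.6, 29.5 and 31.0 CPM in JEKO (log2 fold change -1.63, SE 0.15, adjusted p = 4.71e-08). CDKN1B, p27, was higher (66.7, 71.6 and 61.0 CPM in JEKO, 121, 120.0 and 132 CPM in UPN-1; log2 fold change +0.91, SE 0.08, adjusted p = 6.98e-08), and CDKN1C, p57, rose furthest, from 14.7, 17.5 and 15.9 to 92.3, 78.1 and 129 CPM (log2 fold change +2.64, SE 0.15, adjusted p = 2.67e-10). Of the D cyclins, CCND3 did not differ beyond the spread at 24 h, at 78.9, 84.3 and 85.9 CPM in JEKO and 88.0, 76.1 and 77.6 CPM in UPN-1 (log2 fold change -0.04, SE 0.08, adjusted p = 0.656). CCND2 was at 0.899 ± 0.135 CPM in JEKO and 0.178 ± 0.0601 CPM in UPN-1, too low to be tested, against 23.0 ± 5.26 CPM in MINO. The kinase CDK4 was lower (1026 ± 89.6 CPM in JEKO and 356 ± 7.98 CPM in UPN-1; -1.53 ± 0.08 SE on the log2 scale), while CDK6 had no read in JEKO and 3.37 ± 0.444 CPM in UPN-1 (at least 39.5-fold higher); both were singled out after their values were seen. CCNE2, a cyclin of S-phase entry, read 6.43, 7.40 and 8.31 CPM in JEKO and 36.1, 29.4 and 24.9 CPM in UPN-1 (log2 fold change +2.02, SE 0.16, adjusted p = 1.39e-08), with antisense genes over 37.1% of its exons.

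**Figure D3:**
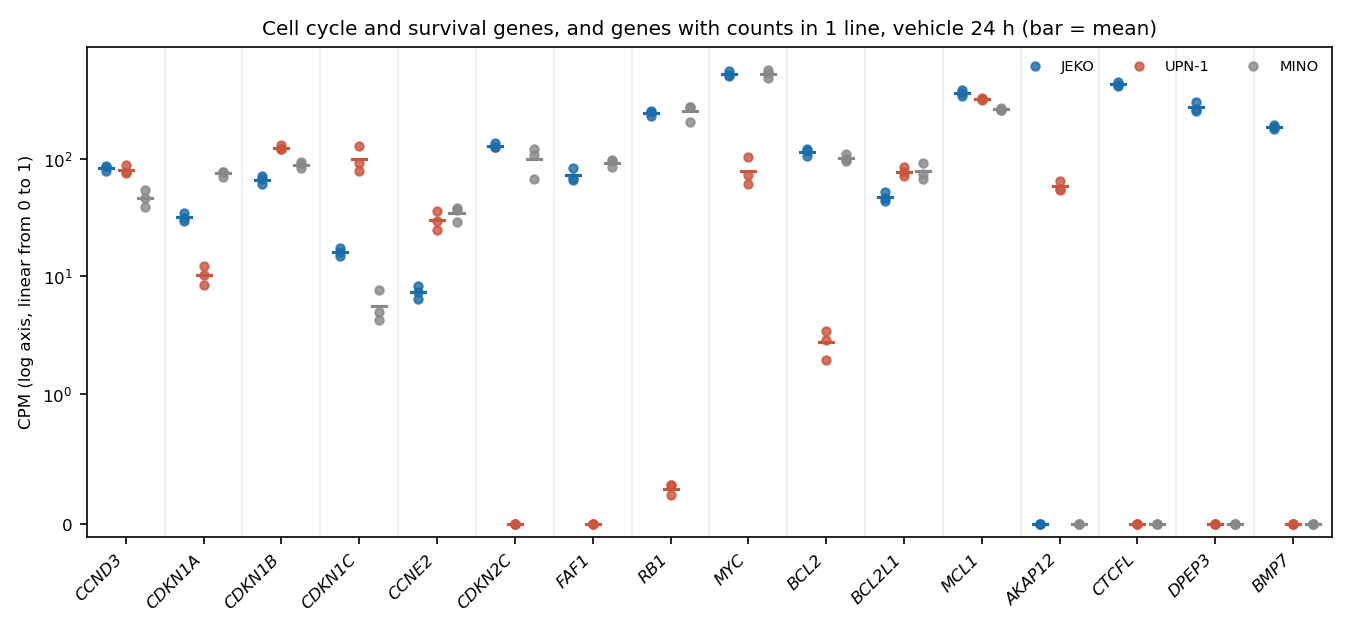
CPM (vertical axis, logarithmic above 1 and linear below) of cell cycle and survival genes and of genes with reads in 1 line, in 3 libraries each of JEKO, UPN-1 and MINO with vehicle at 24 h; bars are means. UPN-1 was at 0 for CDKN2C and FAF1 and between 0.220 and 0.299 CPM for RB1, where JEKO and MINO were high.

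Genes that carry out replication and mitosis were called in both directions, and few passed the test against a 2-fold difference (3 of 39 and 1 of 31). All 39 replication genes were tested, 17 were higher and 11 lower (7 lower with the 12-library spread), with a median of +0.18. MCM4, a helicase subunit, was higher at 695, 741 and 734 CPM against 269, 281 and 317 CPM (log2 fold change +1.32, SE 0.08, adjusted p = 4.59e-10), as were RRM2, a subunit of ribonucleotide reductase (+1.16 ± 0.10 SE), and the ligase LIG1 (+1.12 ± 0.09 SE). TK1, thymidine kinase, was lower, at 73.8, 82.3 and 70.8 CPM in UPN-1 against 267, 257 and 286 CPM in JEKO (log2 fold change -1.84, SE 0.08, adjusted p = 1.09e-11), and so was the primase PRIM1 (-1.64 ± 0.10 SE). All 31 mitosis genes were tested, 10 were higher and 9 lower, with a median of 0.00 (4 and 2 with the 12-library spread). BUB1, a spindle checkpoint kinase, had the largest increase, from 163, 168 and 159 to 582, 509.7 and 500.4 CPM (log2 fold change +1.70, SE 0.08, adjusted p = 2.07e-11). TTK and CENPF, of the checkpoint and the kinetochore, were higher (+1.09 ± 0.11 and +1.09 ± 0.09 SE). The spindle kinase AURKA was lower (-0.58 ± 0.08 SE; adjusted p = 0.0589 with the spread of all 36 libraries).

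MYC differed strongly while its network did not move as a group. MYC, the transcription factor of growth and ribosome production, read 507, 559.9 and 515 CPM in JEKO, 72.2, 60.4 and 104 CPM in UPN-1 and 531 ± 43.3 CPM in MINO. The highest UPN-1 library was far below the lowest JEKO library (log2 fold change -2.73, SE 0.14, adjusted p = 5.53e-11). Of 12 genes of the MYC and MAX network, 11 were tested, 3 were higher and 4 lower. MYCL was lower at a low level (-3.93 ± 0.44 SE), whereas MXD4 (+0.73 ± 0.11 SE), MGA (+0.66 ± 0.09 SE) and MLX (+0.61 ± 0.08 SE), dimer partners in the network, were higher. The 29 ribosome biogenesis genes, many of them known targets of MYC, were all tested, and 10 were higher and 7 lower in UPN-1 (2 lower with the 12-library spread), with a median of +0.07. Nucleolin, NCL, was higher at 2198, 2245 and 2385 CPM in UPN-1 against 1120.4, 1239 and 1383 CPM in JEKO (log2 fold change +0.87, SE 0.09, adjusted p = 2.36e-07), and so were fibrillarin, FBL (+1.01 ± 0.08 SE), and BOP1, of the large subunit (+0.91 ± 0.13 SE). The nucleolar proteins TSR1 and MYBBP1A were lower (-0.88 ± 0.08 and -0.74 ± 0.11 SE).

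The BCL2 family differed most at BCL2 itself, the inhibitor of mitochondrial cell death. BCL2 (chromosome 18, 63123346 to 63320128) read 121, 117 and 105 CPM in JEKO, 2.88, 3.41 and 1.95 CPM in UPN-1 and 101.3 ± 7.68 CPM in MINO (log2 fold change -5.42, SE 0.14, adjusted p = 2.56e-14). Its nearest tested neighbours on chromosome 18, PHLPP1 (-0.75 ± 0.16 SE), KDSR (-0.77 ± 0.15 SE) and VPS4B (-0.79 ± 0.09 SE), were lower by a smaller amount. The related inhibitor BCL2L1, the gene of BCL-xL, was higher at 84.8, 77.1 and 70.6 CPM against 43.96, 46.4 and 52.0 CPM (log2 fold change +0.70, SE 0.09, adjusted p = 5.61e-06; antisense genes cover 41.3% of its exons). MCL1 lay between 318 and 383 CPM in all 6 libraries and was not called (log2 fold change -0.16, SE 0.07, adjusted p = 0.0626), although it was with a minimum count of 50 (adjusted p = 0.0305). Of 13 tested members of 15, 3 were higher and 6 lower. BCL2L2 (-2.30 ± 0.32 SE) and the activator of cell death BIK (-3.20 ± 0.49 SE) were lower, and the pore-forming BAX (+0.28 ± 0.09 SE) and BAK1 (+0.27 ± 0.08 SE) slightly higher (adjusted p = 0.0836 and 0.0938 with the 12-library spread). As BCL2 had the largest difference of the family, the 250 bases before its RefSeq start are shown (GRCh38.p14, 5′ to 3′ on the gene's strand), with CpG dinucleotides, the sites of DNA methylation, in capitals.
BCL2, chr18:63319770-63320019, minus strand: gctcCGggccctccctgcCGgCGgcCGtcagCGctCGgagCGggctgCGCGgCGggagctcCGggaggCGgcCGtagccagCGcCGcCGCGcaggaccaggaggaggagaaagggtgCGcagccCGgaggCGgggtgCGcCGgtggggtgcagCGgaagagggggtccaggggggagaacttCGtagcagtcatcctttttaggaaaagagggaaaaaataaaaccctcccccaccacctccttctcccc
The BCL2 window held 24 CpG sites. It lies inside the GENCODE 44 gene model given above (63123346 to 63320128), downstream of that model's start. Over 13532 windows of the same length before the starts of 9214 tested protein-coding genes the median was 20, and 38.3% held at least as many as BCL2. Methylation was not measured, and the counts describe the reference sequence only.

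In glycolysis all 23 genes were tested, 7 were higher and 11 lower, with a median of -0.39 (4 and 5 with the 12-library spread). The glucose importer SLC2A1 read 45.3, 54.5 and 48.7 CPM in JEKO and 109, 125 and 116 CPM in UPN-1 (log2 fold change +1.24, SE 0.09, adjusted p = 3.72e-09). Glucose phosphate isomerase, GPI, read 215, 252 and 275 CPM and 623, 672 and 749 CPM (log2 fold change +1.46, SE 0.10, adjusted p = 1.23e-09). Every UPN-1 library was above every JEKO library for both, as the naming rule required. The lactate exporter SLC16A3 was lower, at 11.2, 15.9 and 13.3 CPM in UPN-1 against 62.9, 75.9 and 61.4 CPM in JEKO (log2 fold change -2.31, SE 0.13, adjusted p = 1.50e-10), and so was the muscle-type phosphofructokinase PFKM (-1.19 ± 0.08 SE). The lactate dehydrogenase LDHB was higher (+0.65 ± 0.07 SE), and the high-affinity glucose importer SLC2A3 was lower (-3.39 ± 0.40 SE). The hypoxia list gave 3 higher and 3 lower of 13 tested (0 lower with the 12-library spread in edgeR, and 0 at an unadjusted p under 0.05). HIF1A, the oxygen-regulated transcription factor, was higher at 139, 130.2 and 121 CPM against 46.1, 44.2 and 34.2 CPM (log2 fold change +1.65, SE 0.10, adjusted p = 6.75e-10). VEGFA, the vascular growth factor, was lower (-0.76 ± 0.17 SE; adjusted p = 0.176 with the 12-library spread).

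Of the 30 lists, the mitochondrially encoded subunits of the respiratory chain alone had called members in 1 direction only. All 13 were tested, 11 were lower and 0 higher in UPN-1 by edgeR (0 higher at an unadjusted p under 0.05 and 0 by DESeq2), with a median of -1.05. MT-CO2, a core subunit of cytochrome oxidase, read 3547, 3186 and 2715 CPM in JEKO and 1108, 1037 and 829 CPM in UPN-1 (log2 fold change -1.67, SE 0.11, adjusted p = 2.14e-09). MT-ND1, of complex I, read 2139, 1915 and 1662 CPM and 676, 710.1 and 546 CPM (log2 fold change -1.57, SE 0.11, adjusted p = 2.36e-09). Fewer mitochondrial genomes and less transcript from each cannot be told apart here. Nuclear-encoded subunits were divided, with 14 higher and 23 lower of 51 tested and a median of -0.13 (9 and 11 with the 12-library spread). The ATP synthase subunits ATP5F1A (1073, 1083 and 1062 CPM in JEKO, 421, 415 and 403 CPM in UPN-1; log2 fold change -1.38, SE 0.07, adjusted p = 8.67e-11) and ATP5F1B (-1.01 ± 0.08 SE) were lower, as was SDHD, of complex II (-1.18 ± 0.08 SE). NDUFA5 and NDUFA10, of complex I, and cytochrome c1, CYC1, were higher (+1.21 ± 0.09, +1.10 ± 0.08 and +1.01 ± 0.08 SE).

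Cholesterol synthesis genes were mostly lower in UPN-1. Of 21, all tested, 3 were higher and 12 lower, with a median of -0.34. Among the lower genes were TM7SF2 (-1.87 ± 0.12 SE), a sterol reductase, and the oxidase MSMO1 (-1.14 ± 0.11 SE). SREBF2, the transcription factor of the pathway, was lower as well (-0.72 ± 0.08 SE). In fatty acid metabolism 9 genes were higher and 11 lower of 22 tested. The desaturases that make polyunsaturated fatty acids were both lower. FADS1 stood at 38.4, 45.5 and 50.8 CPM in UPN-1 against 217, 188 and 189.6 CPM in JEKO (log2 fold change -2.14, SE 0.10, adjusted p = 2.03e-11). FADS2 stood at 24.1, 26.0 and 33.7 CPM against 146, 119.5 and 123 CPM (log2 fold change -2.20, SE 0.12, adjusted p = 9.76e-11). The elongase ELOVL6 was lower too (-1.71 ± 0.10 SE). ACSL3 and ACADM, which activate and oxidise fatty acids, were higher (+0.86 ± 0.09 and +0.80 ± 0.09 SE).

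Serine and amino acid genes leaned to UPN-1 at 24 h: 38 of 39 were tested, 17 were higher and 9 lower (5 lower with the 12-library spread), with a median of +0.20. The first enzymes of serine synthesis were higher. PHGDH stood at 288, 306 and 311 CPM in UPN-1 against 119, 131 and 113 CPM in JEKO (log2 fold change +1.31, SE 0.08, adjusted p = 3.78e-10). PSAT1 stood at 187, 157 and 174 CPM against 70.1, 67.5 and 74.7 CPM (log2 fold change +1.29, SE 0.08, adjusted p = 1.13e-09). PSAT1 was nearly absent from MINO, at 0.0604 ± 0.0523 CPM. ASS1, of arginine synthesis, was higher at 41.3, 39.3 and 37.2 CPM against 17.2, 16.7 and 11.8 CPM (log2 fold change +1.37, SE 0.14, adjusted p = 1.65e-07). The stress-response factors DDIT3 (-1.44 ± 0.13 SE) and TRIB3 (-0.84 ± 0.12 SE; adjusted p = 0.148 with the 12-library spread) were lower, as was PYCR1, of proline synthesis (-0.86 ± 0.08 SE). In nucleotide synthesis 8 genes were higher and 4 lower of 21 (5 and 2 with the 12-library spread), and CTP synthase, CTPS1, stood at 177, 174 and 178 CPM in UPN-1 against 70.0, 70.6 and 81.5 CPM in JEKO (log2 fold change +1.25, SE 0.08, adjusted p = 8.98e-10). The purine enzyme GART was higher (+0.87 ± 0.07 SE). The adenosine deaminase ADA and the salvage enzyme APRT were lower (-1.06 ± 0.14 and -0.90 ± 0.07 SE).

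As the series tests a KDM5 inhibitor, the baseline of its targets was examined. KDM5A and KDM5B remove methyl groups from a lysine of histone H3 that marks active promoters; the X- and Y-linked members were not analysed here. KDM5A did not differ beyond the spread, at 120.3, 108 and 116 CPM in JEKO and 122, 102 and 123 CPM in UPN-1 (log2 fold change +0.02, SE 0.09, adjusted p = 0.885). KDM5B was higher, at 22.4, 23.3 and 24.3 CPM in UPN-1 against 14.9, 18.3 and 13.02 CPM in JEKO, without overlap (log2 fold change +0.60, SE 0.14, adjusted p = 0.00126), but not with the 12-library spread (adjusted p = 0.235). Of 31 methylases and demethylases of histone lysines, all tested, 12 were higher and 6 lower (6 and 1 with the 12-library spread), with a median of +0.12. KMT2A, a methylase of the lysine that KDM5 enzymes act on, was higher at 83.1, 74.4 and 98.4 CPM against 40.8, 39.9 and 35.4 CPM (log2 fold change +1.14, SE 0.11, adjusted p = 6.73e-08). The demethylases KDM1A (+0.99 ± 0.07 SE) and KDM4A (+1.04 ± 0.09 SE) were higher too, and SETDB2, a methylase of a lysine that marks silent chromatin, was lower (-0.75 ± 0.12 SE). KDM6B, a demethylase of the polycomb mark, was lower by -0.32 ± 0.10 SE, a call lost without JEKO replicate 1 (adjusted p = 0.064) or UPN-1 replicate 3 (0.0508).

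Some genes were read in 1 line and not in the other. With a mean of at least 10 CPM in 1 line and at most 3 reads over the 3 libraries of the other, 61 genes (47 protein-coding) were found in JEKO and 15 (12 protein-coding) in UPN-1. CTCFL, DPEP3, BMP7, CDKN2C, FAF1 and CHN2 were the 6 named for JEKO. CTCFL, the germ-cell relative of the insulator protein CTCF, read 416, 428 and 454 CPM in JEKO and had no read in UPN-1, at least 4688-fold lower. DPEP3, a dipeptidase of testis, read 257, 266 and 302 CPM (at least 2985-fold), and BMP7, a growth factor, 179.5, 193 and 185 CPM (at least 2017-fold). All 3 were at 0 in the MINO libraries as well. CTCFL and BMP7 lie near each other on chromosome 20, and the tested genes between them were expressed in UPN-1, RAE1 at 109.8 ± 2.64 CPM and RBM38 at 242 ± 14.2 CPM. AKAP12, a kinase scaffold, read 65.0, 54.9 and 54.4 CPM in UPN-1 and had no read in JEKO or MINO (at least 669-fold higher than JEKO). HOOK1, a linker to microtubules, read 31.4, 25.6 and 30.6 CPM (at least 341-fold). DEPDC1 had 2 JEKO reads and 26.4, 30.5 and 26.5 CPM in UPN-1, a ratio of 478-fold (95% exact counting interval 132 to 3953). MYEF2, ALG10B, SESTD1 and FOXR1 had no read in JEKO and were at least 265-, 219-, 203- and 195-fold higher in UPN-1, and UCHL1 and BBOX1 had none in UPN-1 and were at least 524- and 501-fold lower. IGFBP2, a binding protein of insulin-like growth factors, was read in both, at 0, 0.161 and 0.343 CPM in JEKO and 218, 178 and 220.0 CPM in UPN-1 (log2 fold change +10.12, SE 0.22, adjusted p = 2.48e-15). The DPEP3 start is shown in the same way, as the gene was at 0 in UPN-1 and MINO and lies on a reference window with 20 CpG sites, the median over all genes.
DPEP3, chr16:67980500-67980749, minus strand: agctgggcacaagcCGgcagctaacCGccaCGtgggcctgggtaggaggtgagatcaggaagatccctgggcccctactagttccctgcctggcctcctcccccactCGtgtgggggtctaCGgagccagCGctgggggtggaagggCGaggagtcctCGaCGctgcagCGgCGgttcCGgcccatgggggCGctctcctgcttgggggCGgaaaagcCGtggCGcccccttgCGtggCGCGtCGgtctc
The window before the start held a median of 10 CpG sites in 65 windows of the 38 JEKO genes with an entry in the promoter table and 20 in 13 windows of the 9 UPN-1 genes with one, a description without a test.

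Differences were not spread evenly over the chromosomes. Median log2 fold changes ran from -1.12 for the mitochondrial genome and -0.47 for chromosome 18 to +0.50 for chromosome 8 and +0.74 for chromosome 13, where 188 of 269 tested genes were higher and 35 lower. The 3 windows of 10 Mb with the highest medians were 90 to 100 Mb of chromosome 13 (+2.08, 19 of 23 genes higher), 100 to 110 Mb of chromosome 13 (+1.56, 15 of 15) and 70 to 80 Mb of chromosome 8 (+1.13). The 3 nuclear windows with the lowest medians were 50 to 60 Mb (-1.11, 27 of 30 lower) and 30 to 40 Mb (-1.10) of chromosome 18 and 40 to 50 Mb of chromosome 2 (-1.01, 28 of 35 lower). In the chromosome 13 stretch 27 of 29 tested protein-coding genes were higher, and 24 of them passed the test against a 2-fold difference. IPO5, a nuclear import receptor, stood at 298 ± 6.09 CPM in JEKO and 1736 ± 51.4 CPM in UPN-1 (SD, n = 3). STK24, a kinase, stood at 154 ± 8.05 CPM in JEKO and 652 ± 49.6 CPM in UPN-1, and TPP2, a peptidase, at 66.6 ± 4.19 CPM in JEKO and 315 ± 20.8 CPM in UPN-1. Their differences were +2.54 ± 0.08, +2.08 ± 0.08 and +2.24 ± 0.08 SE, and for these 3 MINO held levels near those of JEKO (262 ± 22.8, 137 ± 13.9 and 61.4 ± 5.13 CPM). MINO was not near JEKO at every gene of the stretch. FARP1 stood at 178 ± 19.6 CPM in MINO and 76.5 ± 5.77 CPM in JEKO. TMTC4 stood at 8.33 ± 0.973 CPM in MINO and 33.5 ± 4.97 CPM in JEKO. The 2 genes of the stretch that were lower in UPN-1 were OXGR1, a receptor with no read in UPN-1, and GPR183, a receptor for oxysterols that guides B cells (78.7 ± 15.01 CPM in JEKO and 42.7 ± 7.32 CPM in UPN-1). These genes were picked after their values were seen, and the number of copies of the segment was not measured.

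**Figure D4:**
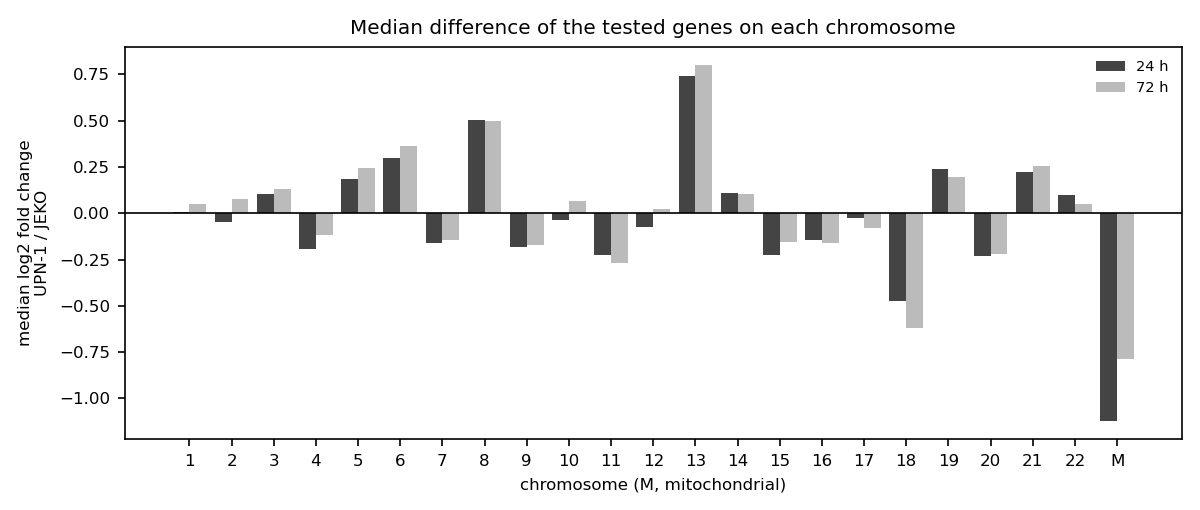
Median log2 fold change, UPN-1 over JEKO, of the tested genes on each chromosome at 24 h (dark bars) and 72 h (light bars). Chromosome 13 (+0.74 and +0.80) and chromosome 8 (+0.50 and +0.50) are the highest, and chromosome 18 (-0.47 and -0.62) and the mitochondrial genome (-1.12 and -0.78) the lowest.

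The vehicle libraries collected at 72 h are separate libraries of the same lines, and the same contrast was run in them. There 7093 of 15319 tested genes were called (46.3%). Of 9201 genes called at 24 h and tested at 72 h, 5727 were called in the same direction and 25 in the opposite one. List medians did not all hold at 72 h, and this was not tested. Among those that moved, glycolysis went from -0.39 to +0.31, fatty acid metabolism from -0.25 to +0.25 and cholesterol synthesis from -0.34 to -0.03. Replication went from +0.18 to +0.87, mitosis from 0.00 to +0.53 and the interferon list from -0.09 to -1.50. Others stayed close, such as NOTCH and WNT (+0.67 and +0.60) and naive and memory genes (-0.74 and -0.76). Among the genes named by the rule in the methods that had more than 3 reads in each line, 79 of 85 called higher at 24 h kept their sign at 72 h and 69 were called again, and 80 of 82 called lower kept it and 67 were called again. RB1 was -7.71 and BCL2 -5.21 on the log2 scale at 72 h, MYC -3.02, CD38 +3.99 and HLA-DQB1 +7.24. CDKN2C had 0 CPM in all 3 libraries of UPN-1 at 72 h. The genes that went the other way included ASS1, at 644, 76.8 and 477 CPM in JEKO and 71.5, 43.0 and 27.9 CPM in UPN-1 at 72 h (-3.07), and PHGDH (-0.50). The change of the line difference between the times was not called for either (adjusted p = 0.0937 and 0.094, edgeR interaction test without the replicate number as a block). It was called for 1 gene of 15757 (0.00635%), SCAMP5. Of these 15757 genes, 2121 had an unadjusted p under 0.05. With the block 20 genes were called. The count of 1 became 0 without JEKO replicate 2 or 3 of 24 h, without any 1 of the UPN-1 replicates of 24 h or without UPN-1 replicate 1 of 72 h. It was 3, 242 and 18 without JEKO replicates 1, 2 and 3 of 72 h, and 159 and 10 without UPN-1 replicates 2 and 3 of 72 h.

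**Figure D5:**
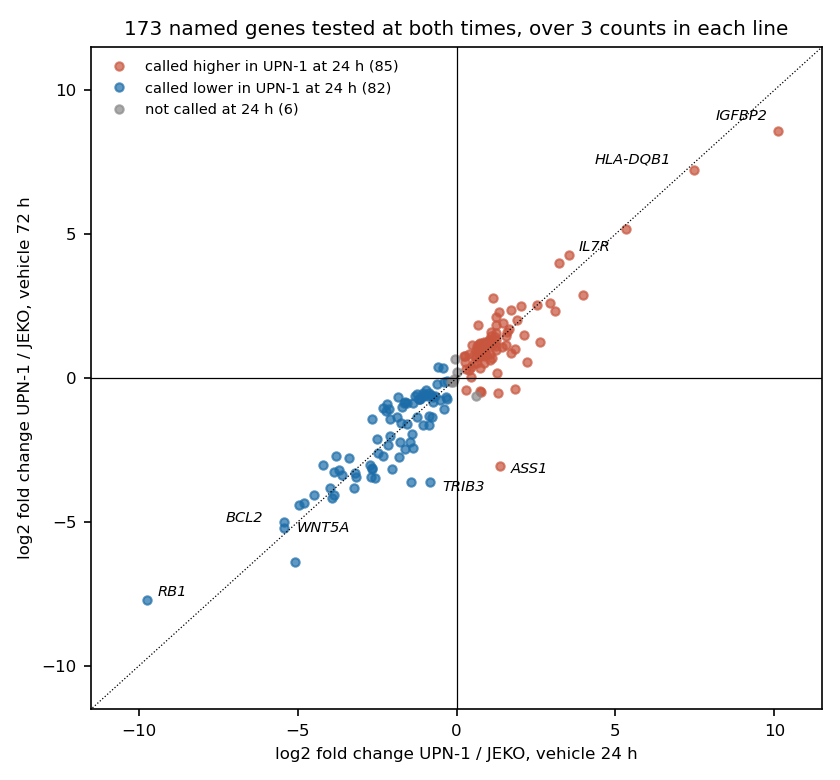
Log2 fold change, UPN-1 over JEKO, with vehicle at 24 h (horizontal axis) and 72 h (vertical axis) for 173 named genes tested at both times with more than 3 reads in each line; the dotted line marks equal values. Most points lie near it from RB1 (-9.73 and -7.71) to HLA-DQB1 (+7.48 and +7.24), and ASS1 (+1.37 and -3.07) lies in the opposite quadrant.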

How the data were processed

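RNA-seq of total RNA was analysed in 6 vehicle libraries at 24 h (3 UPN-1, 3 JEKO), with the 6 of 72 h and 3 of MINO for reference. The deposited files hold read counts per gene, made by the authors; HISAT2 2.2.1, HTSeq 0.13.5 and GRCh38 are named without roles per the submitters' processing notes. The annotation release, strand setting and counting options are not given in the sources used here. The 5 lines that name no gene were left out of library sizes and tests; they took 55.1 to 56.3% of the deposited counts in the 6 libraries. Of 58302 identifiers 57532 matched GENCODE 44 (GRCh38), the others holding at most 0.164% of gene reads, and 2848 on X and Y were left out.

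Groups were taken from the labels. Counts were filtered (edgeR filterByExpr, minimum count 10, total 15), scaled by TMM and tested with edgeR 4.0.16 (R 4.3.3) quasi-likelihood fits of the 6 libraries of 1 time, with glmTreat for 2-fold differences and Benjamini-Hochberg adjustment over all tested genes. The script was tested on simulated counts. CPM are gene reads scaled by the TMM library size. The members and gene lists were chosen with earlier results of these data known, so a list's counts are not independent evidence. Named by rule were 14 genes whatever they showed, up to 3 called genes per direction and list with the largest differences (mean log2 CPM of at least 1, no overlap), the 8 largest per direction over all protein-coding genes (mean log2 CPM of at least 3) and 6 per line among genes read in 1 line. Chosen after their values were seen were the neighbours, the immunoglobulin variable genes, the chromosome 13 genes, CDK4, CDK6, CD79B, MALT1, PRKCB, CD44, ITGA4, ITGB1, ITGB7, NOTCH1, NOTCH2, HLA-DRA, IGHM, IGKC and SREBF2. Exact counting intervals and the floor of 3 counts per group cover counting error only. Alternatives were 2 other scalings, DESeq2 1.42.0, 2 other filters, the replicate block, X and Y kept, each library left out, and fits of 12 and 36 libraries. Some genes are not reported here. At 72 h same-numbered libraries of the lines deviated together (correlations 0.113, 0.135 and 0.289), which the main 72 h and interaction fits did not model.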

Additional observations from a re-analysis of the deposited data

Results flagged for a closer look

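The difference between the lines itself differed between the times for SCAMP5, a membrane protein of secretory vesicles, in the edgeR test of the interaction. UPN-1 was lower than JEKO at 24 h (log2 fold change -1.16) and higher at 72 h (+0.80), a change of 1.94 (SE 0.26, adjusted p = 0.0172 over 15757 genes). Its level at 24 h was 57.3 ± 7.39 CPM in JEKO and 25.7 ± 2.17 CPM in UPN-1 (SD, n = 3). The adjusted p ranged from 0.00174 to 0.125 in edgeR's quasi-likelihood test when 1 of the 12 libraries was left out. It missed the threshold without JEKO replicate 2 or 3 of 24 h, without any 1 UPN-1 replicate of 24 h and without UPN-1 replicate 1 of 72 h, and the change kept its direction in all of these.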

How the results depend on the processing

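The number of genes called at 24 h lay between 7585 (12 libraries in the fit) and 10306 (no filter on low counts) over all alternatives, and DESeq2 called 9167. Without a filter the median over all genes was -0.10 in place of -0.01. In the test against a 2-fold difference, the count was 1631 at 24 h and 1497 at 72 h with a minimum count of 50, which tests fewer genes. The count for the change of the line difference was 20 with the replicate block, 564 without a filter and 0 to 242 with 1 library left out (edgeR; 1618 to 3204 at an unadjusted p under 0.05); the cause was not tested. Genes read in 1 line numbered 42 and 7 in UPN-1, and 107 and 29 in JEKO, at minimums of 5 and 20 CPM. Of 189 named genes called at 24 h, 25 lost the call under some alternative, 5 of them (PRDM1, ITGB2, ADSL and KDM6B among them) by leaving out a library. With the spread of all 36 libraries, 6 interferon genes were lower, 7 genes from cyclin D to RB higher, 9 replication genes higher and 4 lower, 0 mitosis genes lower (edgeR; 1 at an unadjusted p under 0.05), 3 glycolysis genes lower, 1 hypoxia gene higher, 8 nuclear respiratory genes higher and 8 lower, 5 fatty acid genes higher and 3 serine and amino acid genes lower. The other counts of the 30 lists that moved by over 1.5 times in the 12-library fit were the same in both fits, except those of lower plasma cell and PI3K genes. With the replicate block, or without a filter, 2 immunoglobulin constant genes were higher. With a minimum count of 50, 1 naive and memory gene and 1 NF-kappaB target were higher.

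These fold changes turned direction in at least 1 alternative, and the cause was not tested. With 1 library left out they ranged as follows: at 24 h CCND3 from -0.10 to 0.0051, SOX11 from -0.19 to 0.064 and KDM5A from -0.021 to 0.11, and at 72 h SOX11 from -0.19 to 0.26, HDGFL3 from -0.075 to 0.16, SAMD9L from -0.95 to 0.28, CENPE from -0.41 to 0.046, WDR43 from -0.34 to 0.10, P4HA1 from -0.33 to 1.16, PSAT1 from -0.11 to 0.50 and ADSL from -0.32 to 0.0079. KDM5A was -0.011 at 24 h with a minimum count of 50. At 72 h SOX11 was 0.011 without a filter and 0.012 with the replicate block, SAMD9L was 0.014 with the block, and HDGFL3 was -0.014 with upper-quartile scaling and -0.00014 with a minimum count of 50.

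At 24 h same-numbered libraries of the lines correlated at 0.087, 0.060 and 0.146 in their deviations from the line means, each above the other pairings of both libraries. Not every value exceeded 0.1, so the numbers were not used as pairs, which does not show that the libraries were unpaired. At 72 h all 3 did (0.113, 0.135 and 0.289), but the main 72 h and interaction fits also had no block. With it 7565 genes were called at 72 h, in place of 7093. The replicate block called 9763 genes at 24 h, and among the named genes not called without it, BCL6 (+0.62, adjusted p = 0.0452) and MCL1 (-0.16, adjusted p = 0.0182) were called with it (edgeR quasi-likelihood test). At 9720919 to 14125495 gene reads, genes under the minimum count of 10 were not tested, and 3 counts over the libraries of a line stood for 0.0865 CPM in JEKO and 0.0923 CPM in UPN-1.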
